A study of Mus musculus with 64 samples.

Results

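Small nucleolar RNAs (snoRNAs) and their relatives of the Cajal body (scaRNAs) were followed through 4 cell populations of the mouse heart, at 2 ages and with or without a heart attack. The members are all genes that the deposited expression table lists with the biotype snoRNA (205 genes) or scaRNA (15 genes), 220 of 20637 genes in all, taken whatever their level. The animals were CD1 mice. Surgery on postnatal day 1 (P1) or 56 (P56) was either a sham operation or a myocardial infarction (MI), for which the left anterior descending artery was tied off for good, and cells were collected 3 days later. The cardiomyocytes were the bottom layer of a Percoll gradient, and antibody sorting gave fibroblasts (CD90+/CD45-/CD31-), leukocytes (CD45+) and endothelial cells (CD31+/CD45-). There were 16 groups of 4 libraries, so 64 libraries.

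Neonatal ventricles, of a sex not given in the sources used here, went into pools of 6 and were digested under stirring. The adults were males whose hearts were perfused with enzyme, so age cannot be told apart from the isolation and from any difference in sex. In bulk RNA, fewer cells of a type and less RNA per cell cannot be told apart either. Whether replicate libraries are separate pools or animals is not in the labels, and the p-values therefore measure only how far these libraries spread, which may be technical in part.

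SnoRNAs are short noncoding RNAs, most of them cut out of the introns of host genes, that guide chemical changes on other RNAs by base pairing. The box C/D class, with the proteins fibrillarin, Nop56 and Nop58, guides methylation of the ribose; the box H/ACA class, with dyskerin, Gar1, Nhp2 and Nop10, guides the conversion of uridine to pseudouridine. Most of their targets are ribosomal RNAs, a few snoRNAs are needed to cut the ribosomal precursor, and scaRNAs act in Cajal bodies on the small nuclear RNAs of the spliceosome.

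Of the 220 members, 69 were taken as box C/D, 91 as box H/ACA and 16 as Cajal body RNAs (the 15 scaRNA genes and Scarna9), and 44 could not be classed. Symbols and biotypes decided first. A further 102 members, mostly predicted genes named Gm and a number, were classed by their own sequence: TGATGA within the first 25 bases together with CTGA within the last 25 counted as box C/D, and ACA within the last 9 bases as box H/ACA, read on the transcript's strand only. The pair of box C/D motifs was found in 22 of the 39 genes with a Snord symbol (56.4%), in 0 of the 17 with a Snora symbol and in 26.4% of all 220 members. ACA near the end was found in all 17 Snora genes (100%), in 12.8% of the Snord genes and in 51.4% of all members. A match describes letters and is no proof of function.

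The sequences of the members on which the results below turn are transcripts of GENCODE M21 on GRCm38, 5′ to 3′ along the transcript, with the matched motifs in capitals: TGATGA (box C) and CTGA (box D) in the first group, ACA in the second. Scarna9 (chr9:15326264-15326333, minus strand) and Gm24339 (chr9:15326464-15326539, minus strand) lie in introns of Cep295 and are shown because they fell together with age. Gm22486 (chr6:71882557-71882693, minus strand), which RefSeq lists as Snord94, overlaps an exon of Ptcd3 and had the largest rise in cardiomyocytes. Scarna6 (chr1:87784556-87784820, plus strand) and Gm25395 (chr1:87776938-87777209, plus strand) share the host Atg16l1 and both changed with age and MI in fibroblasts. Gm24564 (chr12:109631074-109631148, plus strand) and DQ267102 (chr12:109656345-109656416, plus strand) come from introns of the imprinted transcript Rian and stand for the fibroblast-enriched members.
Scarna9: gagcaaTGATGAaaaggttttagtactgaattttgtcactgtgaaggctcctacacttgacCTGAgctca
Gm24339: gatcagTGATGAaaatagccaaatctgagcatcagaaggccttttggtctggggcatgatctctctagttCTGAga
Gm22486: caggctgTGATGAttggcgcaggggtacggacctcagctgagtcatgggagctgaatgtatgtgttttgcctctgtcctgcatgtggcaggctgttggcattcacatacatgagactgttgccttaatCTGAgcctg
Scarna6: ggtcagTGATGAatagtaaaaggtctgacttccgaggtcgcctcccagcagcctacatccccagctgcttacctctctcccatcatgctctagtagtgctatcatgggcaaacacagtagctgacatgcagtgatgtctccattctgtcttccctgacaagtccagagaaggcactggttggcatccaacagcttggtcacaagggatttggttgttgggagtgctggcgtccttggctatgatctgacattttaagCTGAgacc
Gm25395: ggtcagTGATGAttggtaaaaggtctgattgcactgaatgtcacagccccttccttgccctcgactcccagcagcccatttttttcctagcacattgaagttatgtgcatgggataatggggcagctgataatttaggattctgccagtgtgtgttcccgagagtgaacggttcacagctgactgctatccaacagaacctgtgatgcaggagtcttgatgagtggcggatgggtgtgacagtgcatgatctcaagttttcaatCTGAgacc
Gm24564: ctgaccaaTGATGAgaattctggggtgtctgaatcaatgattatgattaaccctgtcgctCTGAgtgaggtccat
DQ267102: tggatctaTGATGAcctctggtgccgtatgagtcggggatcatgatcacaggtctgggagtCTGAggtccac

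The second group holds box H/ACA members with large changes with age, including a pair of near-copies. Gm22154 (chr4:123293152-123293282, plus strand) and Gm25788 (chr4:123291344-123291474, plus strand) are near-copies in introns of Pabpc4: both have 131 bases, with 4 mismatches (96.9% identity) and a longest shared run of 66 bases. Of the 82 windows of 50 bases in Gm22154, 17 are identical in Gm25788, so reads of 50 bases can belong to both and their separate values are uncertain. Gm22748 (chr12:17546146-17546281, plus strand) lies in an intron of Odc1 and Gm24233 (chr12:59134072-59134193, plus strand) in one of Mia2.
Gm22154: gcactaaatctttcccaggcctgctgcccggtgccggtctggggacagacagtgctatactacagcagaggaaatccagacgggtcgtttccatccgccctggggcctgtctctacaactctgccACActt
Gm25788: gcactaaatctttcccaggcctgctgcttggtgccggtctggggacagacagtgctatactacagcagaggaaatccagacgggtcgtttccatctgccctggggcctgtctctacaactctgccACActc
Gm22748: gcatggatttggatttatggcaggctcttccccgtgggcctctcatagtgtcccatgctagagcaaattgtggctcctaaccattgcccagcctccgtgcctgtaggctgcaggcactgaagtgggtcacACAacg
Gm24233: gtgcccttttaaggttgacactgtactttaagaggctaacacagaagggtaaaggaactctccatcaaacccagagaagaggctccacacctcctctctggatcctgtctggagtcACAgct

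The members took a small part of each library. Levels are the authors' normalised counts (which they name CPM, reads divided by a scaled library size, so that a library need not sum to 1e6), and whole reads were recovered from them. The 64 libraries held 9.59 to 27.5 M reads (M, 1e6; median 20.6 M), of which the members took 0.0682% to 0.306%, or 6679 to 74573 reads. A floor of 3 reads corresponded to 0.102 to 0.409 CPM and speaks to counting error alone, as reads that carry no molecular identifier need not be independent molecules. Between 103 and 215 of the 220 members had at least 3 reads in a given library. Marker genes of each population were found in it (endothelial markers, for example, summed to 7027 to 9373 CPM in the endothelial libraries), but cardiomyocyte markers were also high in leukocyte libraries, as given below. In 7 libraries over 5% of reads came from 18S ribosomal RNA: P1 sham cardiomyocyte 2, fibroblast 4 and leukocyte 4, P56 sham cardiomyocyte 1, P1 MI fibroblasts 1 and 2, and P56 MI leukocyte 1.

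A few long members carried most of the signal. Averaged over the 64 libraries, 146 members were under 1 CPM, 42 between 1 and 5, 24 between 5 and 50, and 8 at 50 or more. Among the 75 members under 100 bases, 1 (Scarna9) averaged at least 5 CPM, against 31 of the 145 longer ones and 8 of 8 with at least 200 bases. The box C/D members had a median length of 75 bases, box H/ACA 132 and Cajal body RNAs 140. Per the labels the RNA was purified on a column before the libraries were made, and how much of the shortest RNAs each step kept was not tested.

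Per kilobase, Snord17 was the most abundant member at 1214 CPM per kb (238 bases, in an intron of the endosomal sorting gene Snx5). Gm22009, a Cajal body RNA in an intron of the importin gene Kpna4, followed at 847, and Gm25395 at 654. The box H/ACA members Gm26448 (host Rpsa) and Gm24119 (host Slc25a3) stood at 559 and 558 CPM per kb. Scarna2, a guide for the spliceosomal U2 RNA that has no host gene, reached 424, Snord22 243 and Scarna6 240. Lower on the same scale were Scarna17 at 29.1, Snord13, which guides acetylation of 18S RNA, at 25.6, Snord118 (U8), needed for processing of large-subunit ribosomal RNA, at 20.0, Snord14a at 8.70, Snord35a at 6.79 and Scarna3a at 2.08.

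**Figure D1:**
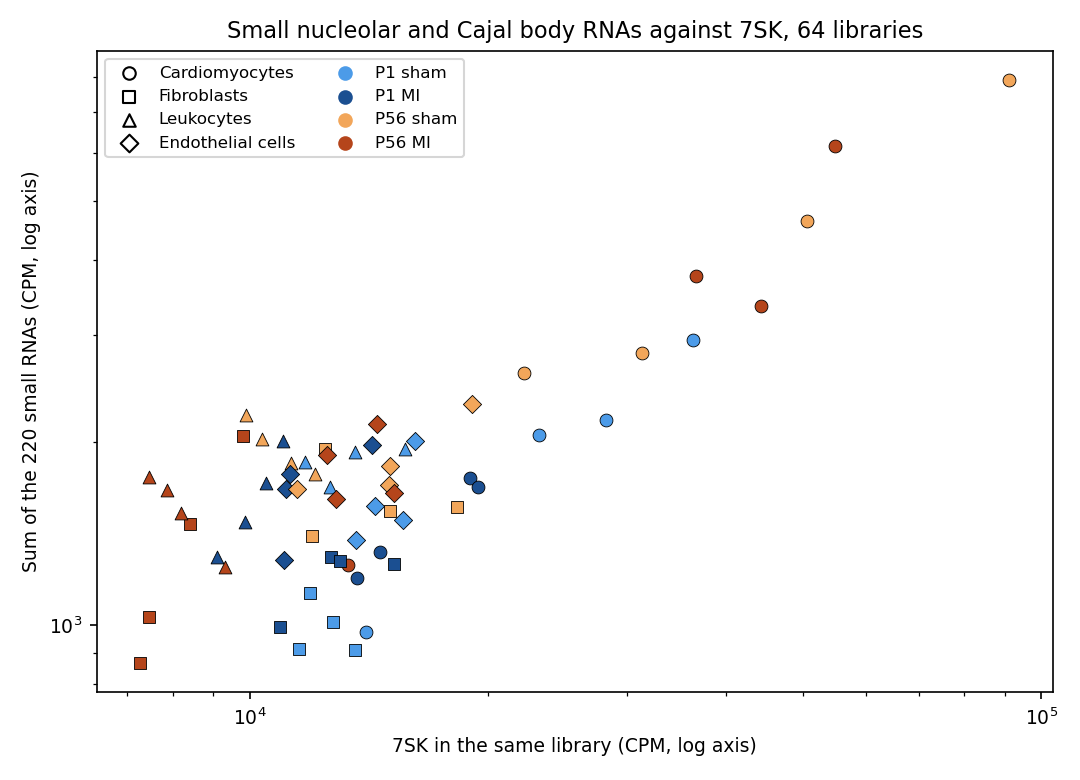
Summed level of the 220 members (CPM, log axis) against the level of 7SK (CPM, log axis) in each of the 64 libraries; the marker shape gives the population and the colour the group. Among the 8 P56 cardiomyocyte libraries both sums span more than 6-fold, 1256 to 7908 CPM for the members and 13331 to 91080 CPM for 7SK.

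Among the P56 cardiomyocyte libraries the members' total rose and fell with 7SK, an abundant nuclear RNA of another kind that restrains a transcription elongation factor. In these 8 libraries the summed members ranged from 1256 to 7908 CPM, a 6.30-fold span, and 7SK from 13331 to 91080 CPM, a 6.83-fold span. The members per 1000 CPM of 7SK spanned 75.8 to 117, or 1.54-fold. The extremes were P56 sham library 3 (7908 CPM) and P56 MI library 3 (1256 CPM). In the 8 P1 cardiomyocyte libraries the members spanned 3.03-fold, 7SK 2.66-fold and the members per 1000 CPM of 7SK 1.33-fold. Other groups did not all share this order. The P56 sham leukocyte libraries held 2220, 1771, 1849 and 2027 CPM of members beside 9897, 12113, 11293 and 10375 CPM of 7SK, so the library with the most 7SK had the fewest members. Between P1 and P56 sham leukocytes the mean of 7SK went from 13428 to 10919 CPM and that of the members from 1855 to 1967 CPM. Over all 64 libraries the ratio to 7SK ran from 66.9 to 235, while the members per 1000 CPM of 18S ran from 2.61 to 12595, because 18S itself varied from 0.0133% to 26.1% of reads after its removal by the kit. 18S was therefore not used as a scale. Counts of members scaled to each library's 7SK are given below where they differ by over 1.5 times or in their split of higher and lower calls. What moves the members and 7SK together in cardiomyocytes was not tested.

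Differences between groups were tested with limma on log2(CPM + 0.5) over the 16 libraries of a population, for genes that reached 1 CPM in 4 or more of them. Changes are log2 values ± standard error, a scale that understates changes of low genes, and a gene was called at a Benjamini-Hochberg adjusted p under 0.05 over all genes of the fit. The filter was passed by 79 cardiomyocyte, 93 fibroblast, 87 leukocyte and 100 endothelial members. In leukocytes 1 of those (Gm23077) passed through a single group.

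In sham cardiomyocytes box H/ACA members were higher in adults than in neonates in 29 of 41 cases tested. Of 79 tested members, 39 were higher at P56 (49.4%, beside 33.3% of all 15461 genes tested) and 10 were lower (12.7%, beside 37.0%). The members' median change was 0.82, beside -0.09 for all genes. By class, 29 of 41 box H/ACA members were higher and 0 lower (median change 1.25), against 4 higher and 6 lower of 22 box C/D members (median 0.35) and 4 higher and 3 lower of 12 Cajal body RNAs (median 0.51). 7SK itself changed by 0.82 ± 0.48 (adjusted p = 0.13). With every library scaled to its 7SK, which moves the median of all genes to -0.81, 12 members were higher (beside 7.22% of all genes) and 10 lower (beside 36.0%), and 11 of the box H/ACA members stayed among those higher. Without the libraries of over 5% 18S, 17 of 40 box H/ACA members were higher. Leaving out single libraries gave 21 to 31.

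The largest rise was that of Gm22486, the box C/D member in the mitochondrial ribosome gene Ptcd3. It measured 37.1, 8.28, 20.4 and 14.4 CPM in the P1 sham libraries (mean 20.1 ± 12.4, SD, n = 4) and 201, 140, 232 and 117 in the P56 sham libraries (173 ± 53.4). No P56 library came near the P1 values, and the change was 3.22 ± 0.38 (adjusted p = 6.0e-07). Ptcd3 changed by 0.85, and with scaling to 7SK the change of Gm22486 was 2.42. After MI at P56 it measured 166, 147, 54.2 and 89.1 CPM (mean 114 ± 51.8), which overlap the P56 sham values, with a difference of -0.67 ± 0.38 that did not pass the test (adjusted p = 0.3).

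The near-copies from Pabpc4, which encodes a poly(A)-binding protein, rose along with their host. Gm22154 read 79.6, 6.34, 49.3 and 50.5 CPM at P1 and 240, 171, 671 and 203 at P56, a change of 2.99 ± 0.63 (adjusted p = 3.5e-04). For Gm25788 the P1 values were 76.8, 16.7, 44.1 and 37.7 CPM and the P56 values 262, 166, 534 and 183, a change of 2.72 ± 0.49 (adjusted p = 7.9e-05). In both, every P56 library lay above every P1 library, and library 2, the one with 16.6% of reads on 18S, was the lowest at P1. Pabpc4 went from 27.8 ± 4.23 to 118 ± 15.3 CPM, a change of 2.07 (adjusted p = 8.4e-09). Scaled to 7SK the 2 members changed by 2.19 and 1.91.

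In other box H/ACA members that rose, the hosts went different ways. Gm22422, in an intron of the mitochondrial tRNA methylation gene Trmt10c, went from 22, 7.86, 14.3 and 9.89 CPM to 103, 61.0, 92.5 and 43.0, with no overlap, a change of 2.45 ± 0.39 (adjusted p = 2.0e-05) beside -0.01 for Trmt10c. Gm25989, in the tRNA queuosine gene Qtrt2, went from 7.25, 0.507, 4.15 and 3.30 CPM to 25.8, 19.6, 50.8 and 21.0. Its change was 3.01 ± 0.49 (adjusted p = 2.5e-05), beside a fall of its host (-0.94, adjusted p = 5.9e-04). Gm24233 stood at 1.20, 0.0845, 0.816 and 0.652 CPM at P1, the second value under the floor of 3 reads, and at 15.4, 8.96, 12.3 and 4.98 at P56 (3.19 ± 0.40, adjusted p = 1.3e-06). Its host Mia2, which acts in export from the endoplasmic reticulum, rose as well, by 0.70 ± 0.27 (adjusted p = 0.027). Snora23 rose from 31.3 ± 13.2 to 97.3 ± 39.4 CPM (1.67 ± 0.50, adjusted p = 0.0064) with Ipo7 at -0.14, a call that scaling to 7SK ended (0.86, adjusted p = 0.13). Snora21, hosted by the ribosomal protein gene Rpl23, rose by 1.94 ± 0.51 (adjusted p = 0.0025) with its host at -0.81, and by 1.20 (adjusted p = 0.045) when scaled to 7SK.

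Among the named box C/D members of fixed families, Snord13 measured 6.69, 1.94, 4.15 and 4.09 CPM at P1 and 10.1, 9.81, 22.5 and 9.18 at P56, without overlap. The change was 1.50 ± 0.38 (adjusted p = 0.0018), and 0.75 (adjusted p = 0.18) when scaled to 7SK. Snord22, from the noncoding host Snhg1, went from 28.1, 26.4, 23.8 and 21.7 CPM to 130, 88.2, 97.6 and 38.6, again without overlap (1.68 ± 0.41, adjusted p = 0.0012), and by 0.88 (adjusted p = 0.15) when scaled to 7SK. Snord118 stood at 1.91 ± 0.527 and 2.58 ± 1.31 CPM and Snord17 at 230 ± 102 and 487 ± 324 CPM (adjusted p = 0.45 and 0.076, limma), and both overlapped between ages.

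The clearest fall was that of the pair in Cep295, a gene of the centriole. Scarna9 and Gm24339 lie close together on the same strand, and whether they are separate RNAs was not tested. Scarna9, a guide for U2 RNA, measured 27.3, 8.28, 17.4 and 23.3 CPM at P1 and 2.36, 1.60, 3.10 and 2.24 at P56, a change of -2.69 ± 0.28 (adjusted p = 9.1e-08). Gm24339 went from 6.93, 3.21, 3.71 and 5.47 CPM to 1.12, 0.472, 1.07 and 0.280 (-2.12 ± 0.28, adjusted p = 2.6e-06). Neither overlapped between ages, and Cep295 fell with them, from 27.9 ± 7.42 to 6.86 ± 1.41 CPM (-1.93). Scaling to 7SK gave -3.35 and -2.65. Gm22442, a Cajal body RNA in the chromatin remodeller gene Chd3, had 49.9, 19.7, 35.1 and 41.2 CPM at P1 and 9.19, 9.06, 25.6 and 5.54 at P56, where library 3 overlapped the P1 values. It changed by -1.67 ± 0.40 (adjusted p = 9.9e-04), beside -2.47 for Chd3. Gm22009 read 574, 217, 368 and 451 CPM against 276, 150, 357 and 160 (-0.78 ± 0.33, adjusted p = 0.041). That call was lost without any one of P1 sham libraries 1, 3 and 4 or P56 sham libraries 2 and 4 (-0.79 to -0.58, adjusted p = 0.062 to 0.14). Scaled to 7SK, Gm22009 changed by -1.59.

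Other cell types also moved with age in these libraries. Markers of proliferating cells summed to 846 to 1041 CPM in P1 sham cardiomyocyte libraries and 2.73 to 10.8 at P56. Fibroblast markers went from 2391 to 6149 CPM to 305 to 953, endothelial markers from 1954 to 3163 to 824 to 1341, and erythroid markers from 1087 to 1609 to 1.89 to 75.0. Cardiomyocyte markers themselves rose from 42019 to 68497 CPM to 174110 to 205956. Their part in the members' changes was not tested.

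**Figure D2:**
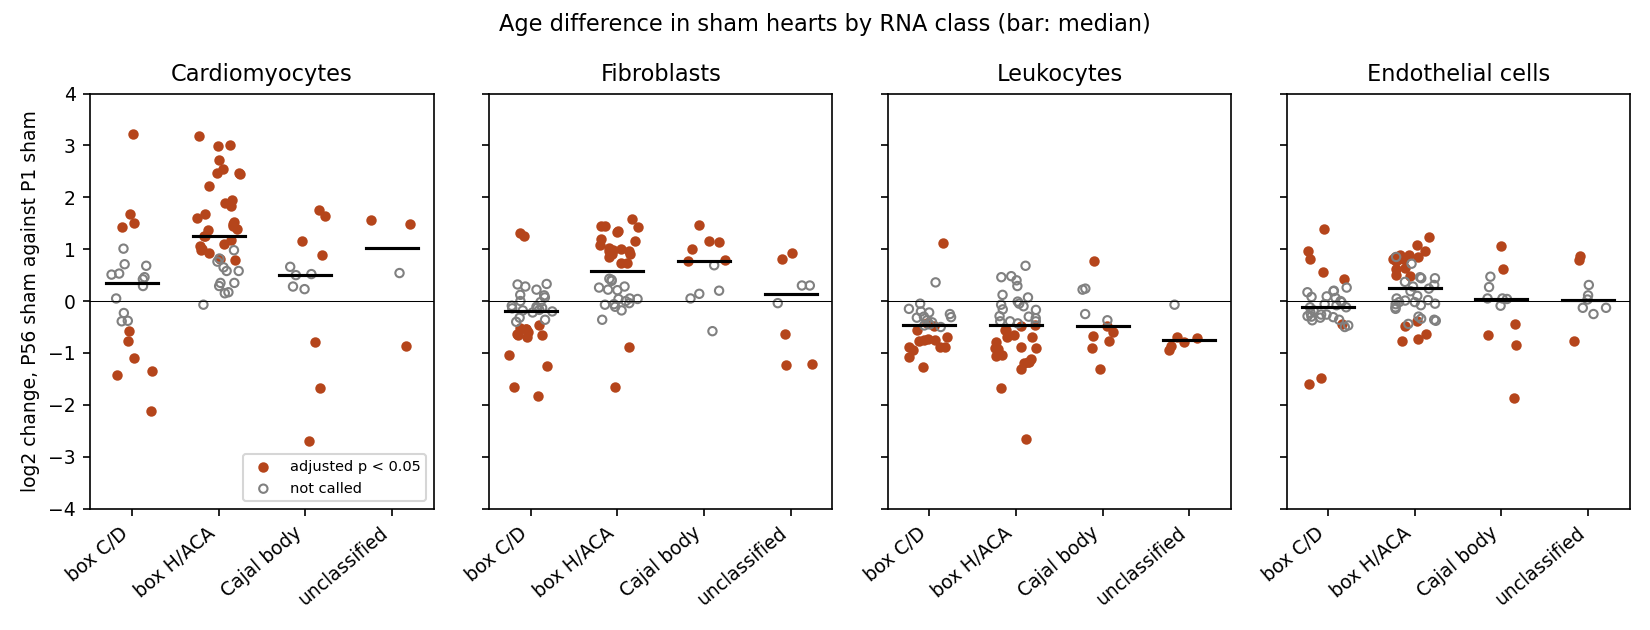
Change of each tested member between P1 and P56 sham libraries (log2 scale) in 4 panels, 1 per population, split into box C/D, box H/ACA, Cajal body and unclassified members. Filled points have an adjusted p under 0.05, open points do not, and bars are medians; in cardiomyocytes the box H/ACA median is 1.25 and in leukocytes most called points lie below 0.

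In sham fibroblasts 29 of 93 tested members were higher at P56 (31.2%, beside 34.8% of 15729 genes) and 18 lower (19.4%, beside 32.2%), with a median change of 0.11 beside 0.03 for all genes. By class, of 11 Cajal body RNAs 6 were higher and 0 lower (median 0.78), of 38 box H/ACA members 19 were higher and 2 lower (median 0.58), and of 36 box C/D members 2 were higher and 13 lower (median -0.19). For box H/ACA, leaving out single libraries gave 9 to 20 higher, and leaving out the libraries of over 5% 18S gave 13 higher and 3 lower.

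Among the Cajal body RNAs that rose without overlap were the 3 following. Scarna13, hosted by the noncoding gene Snhg10, had 17.7, 17.6, 14.8 and 22.2 CPM at P1 and 42.3, 38.2, 36.4 and 44.2 at P56 (1.14 ± 0.15, adjusted p = 3.6e-06). Scarna6, which guides modification of U5 RNA, went from 27.6, 27.5, 23.2 and 24.8 CPM to 72.7, 45.7, 59.7 and 57.7 (1.16 ± 0.20, adjusted p = 6.6e-05). Scarna2 measured 97.0, 99.5, 122 and 104 CPM at P1 and 205, 146, 193 and 197 at P56 (0.80 ± 0.15, adjusted p = 1.6e-04). In each, the lowest P56 library lay above the highest P1 library. Gm22442 rose as well, from 22.4, 21.4, 19.1 and 26.3 CPM to 43.4, 34.4, 37.2 and 39.4 (0.78 ± 0.17, adjusted p = 7.0e-04), with its host Chd3 at -1.01. Gm25395, in the autophagy gene Atg16l1, had the largest rise among members that reached a mean of 5 CPM without overlap: 52.0, 53.4, 52.0 and 70.0 CPM became 212, 121, 173 and 138 (1.47 ± 0.31, adjusted p = 5.3e-04). Atg16l1 changed by 0.56.

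Snord17 rose from 124, 97.0, 74.5 and 83.5 CPM to 194, 183, 244 and 290 without overlap (1.26 ± 0.39, adjusted p = 0.0087), while its host Snx5 changed by -0.78. Gm22154 rose from 16.4, 13.3, 8.67 and 7.35 CPM to 24.3, 27.9, 29.8 and 42.0 (1.44 ± 0.31, adjusted p = 6.3e-04) and Pabpc4 changed by -0.62. Snora23 rose from a mean of 16.7 to 42.4 CPM (1.35 ± 0.42, adjusted p = 0.0098) and Ipo7 changed by -0.87. For these 3 members the host therefore moved the other way.

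Those lower at P56 in fibroblasts were mostly short box C/D RNAs of noncoding hosts. In Rian, an imprinted transcript expressed from the maternal chromosome, Gm24564 went from 1.63, 3.08, 2.18 and 2.04 CPM to 0.775, 0.739, 0.576 and 1.24 (-1.03 ± 0.24, adjusted p = 0.0012). DQ267102, also in Rian, went from 1.56, 3.47, 3.35 and 2.86 CPM to 0.323, 0.478, 0.403 and 0.428 (-1.82 ± 0.32, adjusted p = 9.1e-05). Both had no overlap, at levels of few reads, and Rian fell from 591 ± 106 to 206 ± 14.7 CPM (-1.50, adjusted p = 4.4e-07). Of the 8 members hosted by Snhg1, 6 were called lower, with changes of -0.69 to -0.54; Gm23246 (-0.09) and Snord22 (0.32) did not pass the test. Gm22748 in Odc1, the first enzyme of polyamine synthesis, had 4.08, 4.81, 3.92 and 3.81 CPM at P1 and 0.646, 0.739, 0.921 and 1.84 at P56, with no overlap (-1.65 ± 0.24, adjusted p = 1.4e-05). Odc1 changed by -3.15, from 41.5 to 4.22 CPM. Markers of proliferating cells summed to 776 to 1038 CPM at P1 and 4.07 to 41.1 at P56, and cardiomyocyte markers to 270 to 486 and 2789 to 5914; their part was not tested.

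In sham leukocytes far more members fell than rose with age. Of 87 tested members 2 were higher at P56 (2.30%, beside 32.5% of 16239 genes) and 46 lower (52.9%, beside 34.5%), with a median of -0.48 beside -0.01 for all genes. The lower calls held 21 of 41 box H/ACA, 14 of 29 box C/D and 6 of 11 Cajal body members. Scaled to 7SK, which moves the median of all genes to 0.26, 5 members were higher (beside 41.4% of all genes) and 25 lower (beside 22.6%). Gm22748 fell furthest, from 8.05, 7.41, 6.22 and 8.53 CPM to 1.23, 0.511, 0.886 and 0.603 (-2.65 ± 0.21, adjusted p = 2.9e-08), and Odc1 changed by -3.94. Gm25791, which overlaps an exon of Taf1d, a subunit of the RNA polymerase I initiation factor, had 13.4, 9.88, 14.7 and 14.9 CPM at P1 and 4.92, 3.50, 2.13 and 5.13 at P56 (-1.68 ± 0.24, adjusted p = 1.4e-05), beside -1.29 for Taf1d. Neither overlapped between ages.

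Scarna9 fell in leukocytes from 20.9, 20.1, 23.3 and 19.7 CPM to 6.54, 10.2, 7.80 and 8.53 with no overlap (-1.31 ± 0.15, adjusted p = 1.7e-06), while its host Cep295 stood at 31.3 ± 2.17 and 30.3 ± 2.60 CPM (-0.05). Snora28 fell from 7.90, 6.24, 5.66 and 8.30 CPM to 2.91, 2.60, 3.19 and 2.50 (-1.18 ± 0.18, adjusted p = 2.9e-05), with its host Eif5, a translation initiation factor, at -0.99. Snord14a, a guide also needed for 18S processing, went from 1.41 ± 0.134 to 0.616 ± 0.0650 CPM (-0.77, adjusted p = 7.5e-04). The 2 members that rose were Snord17 and Gm25395. Snord17 had 278, 259, 290 and 286 CPM at P1 and 632, 514, 611 and 676 at P56 (1.12 ± 0.25, adjusted p = 8.5e-04), and Gm25395 127, 110, 129 and 130 against 216, 228, 250 and 168 (0.78 ± 0.18, adjusted p = 0.0012), both without overlap.

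Cardiomyocyte markers summed to 18099 to 23847 CPM in the P1 sham leukocyte libraries and to 74401 to 204667 in those of P56 sham, more than in some cardiomyocyte libraries. Endothelial markers went from 3152 to 3694 CPM to 331 to 485 and those of proliferating cells from 666 to 807 to 125 to 251. Their part in the leukocyte changes was not tested.

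In sham endothelial cells 24 of 100 tested members were higher at P56 (24.0%, beside 33.6% of 15706 genes) and 13 lower (13%, beside 29.3%), with a median of 0.04 beside 0.05. The box H/ACA class had 15 higher and 5 lower of 46. The Cep295 pair fell again: Scarna9 had 21.4, 21.8, 19.4 and 19.9 CPM at P1 and 4.80, 4.54, 5.43 and 6.62 at P56 (-1.86 ± 0.17, adjusted p = 6.1e-08), and Gm24339 5.34, 4.44, 6.00 and 5.33 against 1.50, 0.813, 1.61 and 1.88 (-1.59 ± 0.19, adjusted p = 2.1e-06). Neither overlapped, and Cep295 changed by -0.31. In fibroblasts Scarna9 changed by -0.58 ± 0.28 (adjusted p = 0.08), so that it passed the test in 3 of the 4 populations. Whether the 4 changes differ was not tested.

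Gm22442 fell in endothelial cells from 30.0, 32.3, 30.0 and 28.9 CPM to 15.7, 14.5, 19.9 and 16.9 (-0.85 ± 0.10, adjusted p = 9.5e-07), with Chd3 at -1.10. Gm22486 rose from 4.44, 3.16, 5.04 and 5.28 CPM to 13.7, 6.45, 11.7 and 21.3 (1.38 ± 0.32, adjusted p = 0.0013) and Scarna2 from 144, 163, 192 and 138 CPM to 219, 216, 256 and 290 (0.62 ± 0.16, adjusted p = 0.0023). None of the 3 overlapped between ages. Snora68, Snora21 and Snora78 rose by 0.96, 0.85 and 0.82. Cardiomyocyte markers in these libraries summed to 648 to 2379 CPM at P1 and 9035 to 20681 at P56, with the same limit.

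The question after MI was whether the members respond to injury, and whether they do so differently at the age when the mouse heart regenerates. Each MI comparison shares its sham libraries with the age comparison above. At P1 no member was called in cardiomyocytes (beside 0.343% of all genes), fibroblasts (beside 2.37%) or endothelial cells (beside 0.216%) by limma, nor by edgeR on recovered reads. At an unadjusted p under 0.05 there were 0 of 79, 11 of 93 and 6 of 100 members. The share of all genes at that level is not given, so these counts are no result about the members. In leukocytes 1 of 87 was higher (1.15%, beside 22.6% of all genes) and 27 were lower (31.0%, beside 22.6%).

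The member that rose in P1 leukocytes was Gm23455, which overlaps an exon of Taf1d: 6.89, 5.90, 6.66 and 7.74 CPM after sham became 11.7, 14, 10.4 and 11.6 after MI, without overlap (0.76 ± 0.15, adjusted p = 6.1e-04), with Taf1d at -0.41. Gm22442 fell from 21.2, 21.8, 29.2 and 26.6 CPM to 9.43, 7.42, 8.44 and 7.50 (-1.53 ± 0.14, adjusted p = 4.8e-07). Gm22748 fell from 8.05, 7.41, 6.22 and 8.53 CPM to 3.20, 2.36, 2.77 and 2.64 (-1.31 ± 0.21, adjusted p = 1.3e-04), beside -1.55 for Odc1. All 4 MI values lay below all 4 sham values for both. Snord22 had 27.6, 22.4, 35.4 and 82.6 CPM after sham and 18.6, 17.2, 17.4 and 13.4 after MI (-1.13 ± 0.39, adjusted p = 0.026). Without P1 sham library 4 it changed by -0.74 (adjusted p = 0.098) and without P1 MI library 4 by -1.03 (adjusted p = 0.068), and scaling to 7SK gave -0.73 (adjusted p = 0.12). With that scaling 8 members were higher (beside 42.6% of all genes) and 4 lower (beside 9.98%), the median of all genes moving to 0.36. Cardiomyocyte markers in these libraries summed to 18099 to 23847 CPM after sham and 5436 to 15094 after MI, and endothelial markers to 3152 to 3694 and 369 to 655; their part was not tested.

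At P56 the cardiomyocytes had 2 of 79 members lower after MI (2.53%, beside 1.03% of all genes) and 0 higher (beside 8.66%). Snora30 had 9.06, 4.72, 7.15 and 4.28 CPM after sham and 4.29, 3.87, 1.53 and 1.74 after MI (-1.07 ± 0.29, adjusted p = 0.027). Gm22362 had 6.58, 4.34, 5.48 and 4.14 CPM against 4.29, 1.37, 2.37 and 1.82 (-1.0 ± 0.29, adjusted p = 0.036). The groups overlapped in both. Snora30 lost its call without P56 sham libraries 1 or 3 or MI library 4 (-0.99 to -0.88, adjusted p = 0.061 to 0.1), Gm22362 without sham libraries 1, 2 or 3 or MI libraries 2 or 4 (-1.06 to -0.81, adjusted p = 0.053 to 0.11), and both lost it under scaling to 7SK, where 0 members were higher (beside 2.54% of all genes) and 0 lower (beside 0.0259%). The count of called members was 6 without MI library 1, 1 without sham library 2, and 0 without MI library 4, sham library 1 or sham library 3.

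**Figure D3:**
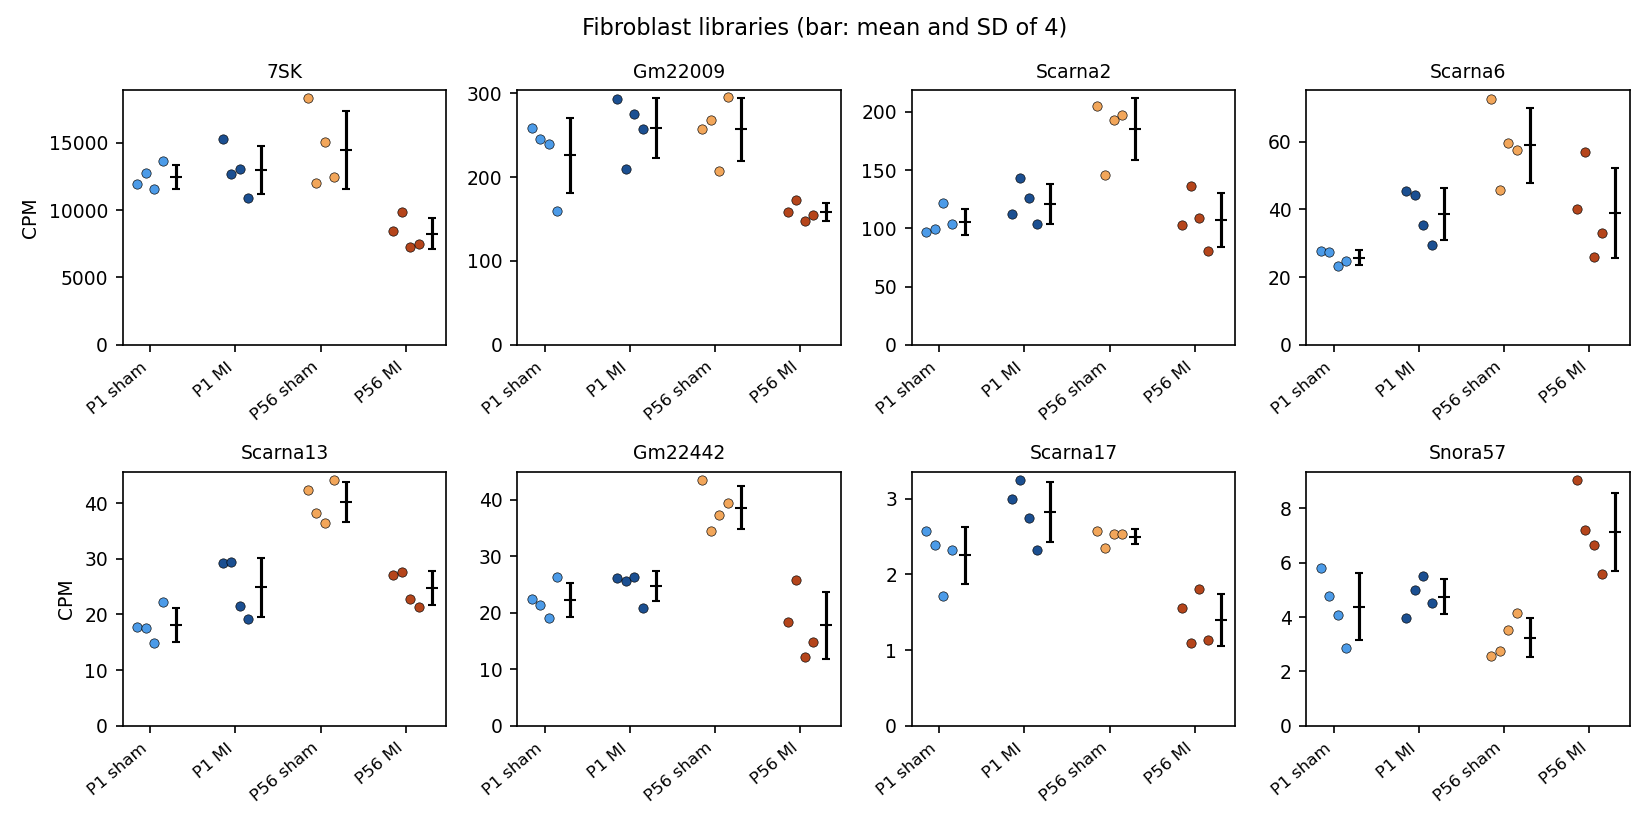
CPM of 7SK, Gm22009, Scarna2, Scarna6, Scarna13, Gm22442, Scarna17 and Snora57 in the 4 fibroblast groups; points are libraries, and bars give the mean and SD of 4. P56 sham values of Scarna13 (36.4 to 44.2 CPM) lie above those after P56 MI (21.4 to 27.6 CPM), and Snora57 goes the opposite way.

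In adult fibroblasts Cajal body RNAs were lower after MI on the authors' scale, and so was 7SK. Of 93 tested members 17 were higher (18.3%, beside 24.8% of all genes) and 10 lower (10.8%, beside 25.2%). The lower calls included 8 of the 11 Cajal body RNAs (median change -0.68; 5 to 8 of them when single libraries were left out), against 0 of 36 box C/D members, of which 9 were higher, and 2 of 38 box H/ACA members, of which 7 were higher. The summed Cajal body RNAs went from 857, 678, 730 and 803 CPM after sham to a mean of 462 ± 103 after MI. 7SK fell too, from 18309, 11986, 15052 and 12468 CPM to 8414, 9825, 7281 and 7457, without overlap (-0.80 ± 0.25, adjusted p = 0.015). Per 1000 CPM of 7SK the Cajal body RNAs stood at 54.1 ± 8.11 after sham and 55.6 ± 4.36 after MI. Scaled to 7SK, which moves the median of all genes to 0.71, 55 members were higher (beside 66.8% of all genes) and 0 lower (beside 2.70%), and 2 of the Cajal body RNAs were among the higher.

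On the authors' scale Gm22442 fell furthest, from 43.4, 34.4, 37.2 and 39.4 CPM to 18.3, 25.8, 12.1 and 14.9 (-1.15 ± 0.17, adjusted p = 4.9e-05), with Chd3 at 0.00; scaled to 7SK it changed by -0.37 (adjusted p = 0.066). Scarna2 went from 205, 146, 193 and 197 CPM to 103, 136, 109 and 80.2 (-0.80 ± 0.15, adjusted p = 3.5e-04; -0.01 scaled to 7SK). Scarna13 went from 42.3, 38.2, 36.4 and 44.2 CPM to 27.1, 27.6, 22.8 and 21.4 (-0.70 ± 0.15, adjusted p = 9.9e-04; 0.09 scaled to 7SK). These 3 had no overlap between sham and MI, and the falls of Scarna2 and Scarna13 were close in size to that of 7SK.

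Gm22009 had 257, 268, 207 and 296 CPM after sham and 158, 173, 148 and 155 after MI (-0.69 ± 0.15, adjusted p = 0.0012; 0.11 scaled to 7SK), and Scarna17 2.58, 2.35, 2.53 and 2.53 against 1.55, 1.10, 1.81 and 1.13 (-0.68 ± 0.15, adjusted p = 0.0016; -0.05 scaled to 7SK). Neither overlapped. Scarna6 had 72.7, 45.7, 59.7 and 57.7 CPM against 40.1, 56.9, 26.0 and 32.9, which overlap (-0.63 ± 0.20, adjusted p = 0.014; 0.16 scaled to 7SK), and lost its call without MI library 3 (-0.46, adjusted p = 0.058). Gm25395, with 212, 121, 173 and 138 CPM against 83.1, 170, 49.6 and 67.9, also overlapped (-0.92 ± 0.31, adjusted p = 0.022). It lost its call without sham library 1 or 3 or MI library 3 or 4 (-0.87 to -0.67, adjusted p = 0.051 to 0.086) and under scaling to 7SK (-0.12).

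Snora57 rose on either scale. It had 2.58, 2.74, 3.51 and 4.15 CPM after sham and 9.03, 7.19, 6.65 and 5.60 after MI, without overlap (1.02 ± 0.19, adjusted p = 4.0e-04). Gm23455 rose from 2.97, 3.52, 3.11 and 3.60 CPM to 6.73, 3.78, 6.51 and 5.79 (0.68 ± 0.18, adjusted p = 0.0059), with Taf1d at 0.77. Gm22748 rose by 0.84 and Odc1 by 2.13. Among the box C/D members, Gm25855 and Gm22680 of Snhg1 rose by 0.90 and 0.87, Snord83b by 0.67 and Snord100 by 0.63. Markers of proliferating cells summed to 4.07 to 41.1 CPM after sham and 218 to 783 after MI, and cardiomyocyte markers to 2789 to 5914 and 239 to 1034; their part was not tested.

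The change after MI differed between ages for 20 of 93 members in fibroblasts by limma's test of the difference: 11 changes were more positive at P56 (11.8%, beside 16.2% of all genes) and 9 more negative (9.68%, beside 15.5%). The more negative ones included 8 of 11 Cajal body RNAs, a count that no left-out library changed. Their differences were -1.56 ± 0.44 for Gm25395 (adjusted p = 0.014), -1.29 ± 0.24 for Gm22442 (9.6e-04), -1.19 ± 0.28 for Scarna6 (0.0046), -1.13 ± 0.21 for Scarna13 (8.4e-04), -1.0 ± 0.21 for Scarna2 (0.0024), -0.96 ± 0.21 for Scarna17 (0.0035) and -0.90 ± 0.21 for Gm22009 (0.0045). At P1, Scarna2 stood at 105 ± 11.2 and 121 ± 17.1 CPM after sham and MI, and Scarna13 at 17.7, 17.6, 14.8 and 22.2 CPM after sham and 29.3, 29.4, 21.6 and 19.1 after MI. With scaling to 7SK no Cajal body RNA kept its call (differences of -0.71 to -0.05 for the 7 named), while 35 members were more positive (beside 55.3% of all genes) and 0 more negative (beside 1.94%), the median of all genes moving to 0.77. Snora57 was more positive at P56 on both scales, by 0.89 ± 0.27 (adjusted p = 0.021) and by 1.66 scaled to 7SK.

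**Figure D4:**
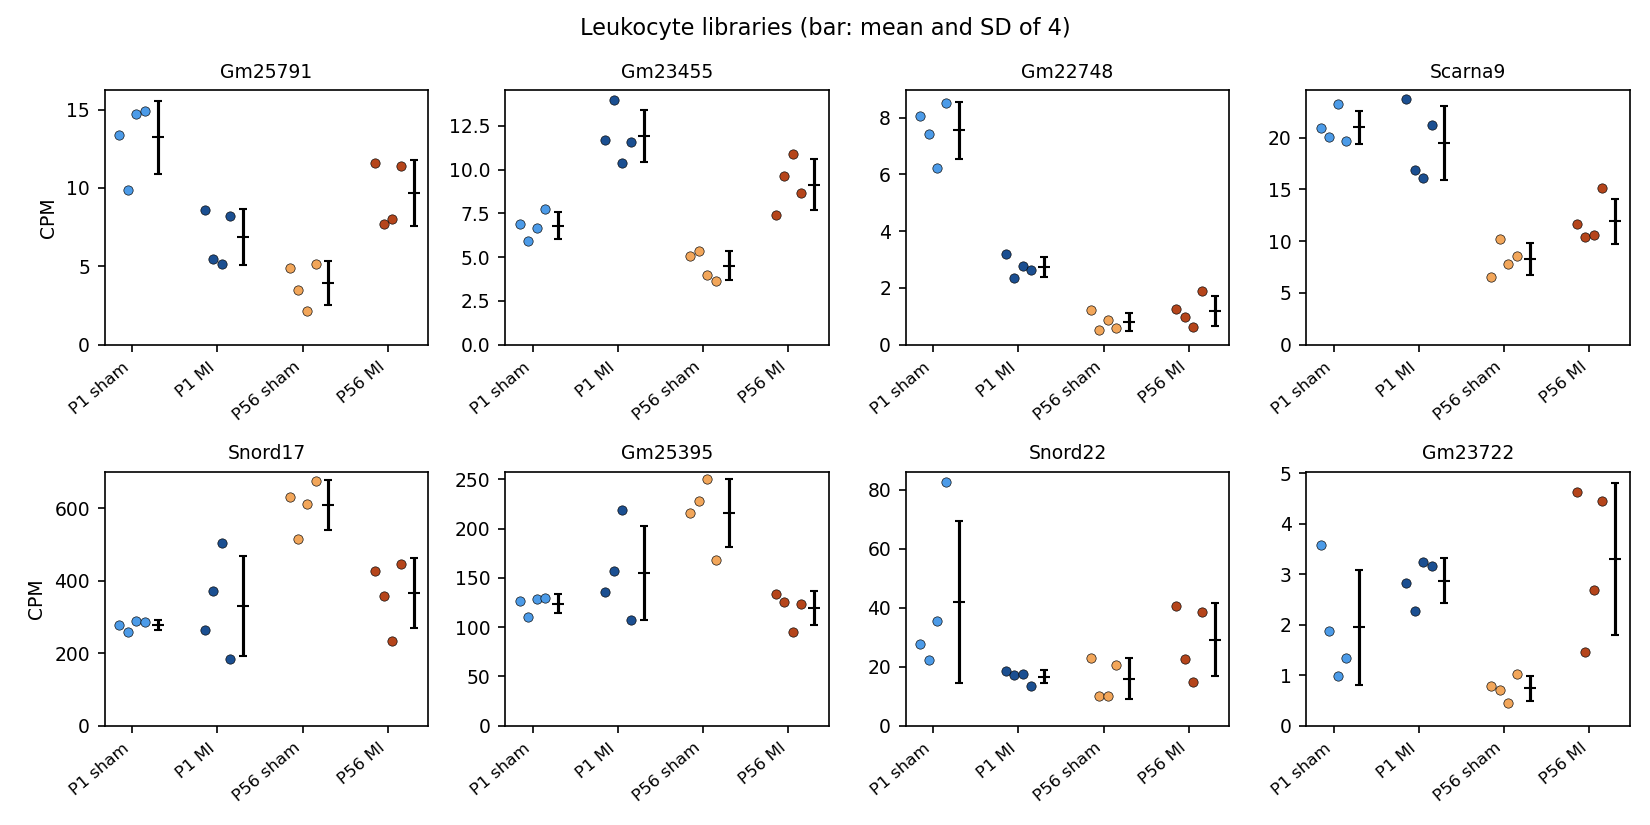
CPM of Gm25791, Gm23455, Gm22748, Scarna9, Snord17, Gm25395, Snord22 and Gm23722 in the 4 leukocyte groups; points are libraries, and bars give the mean and SD of 4. Gm25791 is lower after MI than after sham at P1 (6.86 against 13.2 CPM on average) and higher at P56 (9.67 against 3.92 CPM).

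In adult leukocytes more members rose than fell after MI. At P56, 30 of 87 members were higher (34.5%, beside 30.7% of all genes) and 8 lower (9.20%, beside 28.8%), with a median of 0.33 beside 0.02. Scaled to 7SK, with the median of all genes at 0.40, 51 were higher (beside 47.9%) and 2 lower (beside 15.4%). The higher calls held 14 of 41 box H/ACA and 12 of 29 box C/D members. Gm25791 went from 4.92, 3.50, 2.13 and 5.13 CPM to 11.6, 7.67, 8.02 and 11.4 (1.24 ± 0.24, adjusted p = 3.6e-04) and Gm23455 from 5.09, 5.35, 3.99 and 3.62 to 7.40, 9.61, 10.9 and 8.69 (0.95 ± 0.15, adjusted p = 5.3e-05). All MI values lay above all sham values in both, and their host Taf1d changed by 0.82. Gm23722, in the ubiquitin ligase gene Rnf149, went from 0.783, 0.708, 0.443 and 1.03 CPM to 4.63, 1.46, 2.70 and 4.45 (1.54 ± 0.31, adjusted p = 5.1e-04), beside 1.74 for Rnf149. Gm24727, in the glutathione reductase gene Gsr, went from 1.57, 0.354, 0.222 and 0.991 CPM to 2.83, 2.02, 4.12 and 4.60 (1.68 ± 0.31, adjusted p = 2.5e-04), beside 1.23 for Gsr. Neither of these low members overlapped.

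Scarna9 rose from 6.54, 10.2, 7.80 and 8.53 CPM to 11.7, 10.4, 10.6 and 15.1 without overlap (0.51 ± 0.15, adjusted p = 0.0094), with Cep295 at 0.04. Among the members that fell were Gm25395, Gm22442 and Snord17. Gm25395 had 216, 228, 250 and 168 CPM after sham and 134, 126, 94.7 and 124 after MI (-0.85 ± 0.18, adjusted p = 8.0e-04), and Gm22442 13.3, 18.4, 18.8 and 19.9 against 10.5, 10.7, 9.08 and 10.3 (-0.76 ± 0.14, adjusted p = 2.1e-04), both without overlap. Snord17 had 632, 514, 611 and 676 CPM against 427, 358, 234 and 447, again without overlap (-0.77 ± 0.25, adjusted p = 0.014). Without MI library 3 it changed by -0.56 (adjusted p = 0.057), and scaled to 7SK by -0.35 (adjusted p = 0.24). Scarna6 changed by -0.51 ± 0.16 (adjusted p = 0.014), by -0.40 (adjusted p = 0.051) without MI library 3 and by -0.10 scaled to 7SK. Cardiomyocyte markers summed to 74401 to 204667 CPM after sham and 5107 to 18660 after MI, and markers of proliferating cells to 125 to 251 and 436 to 748; their part in these changes was not tested.

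The difference of the MI change between ages in leukocytes was called for 45 of 87 members: 42 were more positive at P56 (48.3%, beside 23.7% of all genes) and 3 more negative (3.45%, beside 21.5%). Of 41 box H/ACA members 21 were more positive and 0 more negative. The difference was 2.16 ± 0.34 for Gm25791 (adjusted p = 1.5e-04) and 1.97 ± 0.55 for Snord22 (0.0082). The more negative members were Gm25395 at -1.12 ± 0.26 (adjusted p = 0.0024), Snord17 at -0.92 ± 0.35 (0.044) and Scarna6 at -0.67 ± 0.23 (0.026). Snord17 lost its call without any one of 11 libraries (all 4 of P1 sham, P56 sham 1, 3 and 4, P1 MI 2 and 3, and P56 MI 2 and 3; -0.94 to -0.68, adjusted p = 0.059 to 0.091) and when scaled to 7SK (adjusted p = 0.061). Scarna6 lost its call without any one of 6 (P1 sham 3, P56 sham 2 and 3, P1 MI 2 and 3, and P56 MI 3; -0.63 to -0.52, adjusted p = 0.05 to 0.057).

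In adult endothelial cells the called members were all higher after MI. At P56, 9 of 100 members were higher (9.00%, beside 12.5% of all genes) and 0 lower (beside 7.88%). Snora57 rose here too, from 2.11, 1.58, 2.97 and 1.88 CPM to 4.80, 3.08, 3.35 and 3.92 (0.71 ± 0.18, adjusted p = 0.011), and Snord83b from 2.03, 1.29, 1.11 and 1.54 to 4.49, 2.17, 2.32 and 3.44 (0.83 ± 0.22, adjusted p = 0.013), beside 0.71 for its host Rpl3. Neither overlapped. Scaled to 7SK, 4 members were higher (beside 8.90% of all genes) and 0 lower (beside 1.76%), Snora57 and Snord83b among the higher. On the authors' scale the count was 3 without MI library 1, 4 without MI library 4 or sham library 2, 5 without sham library 4 and 14 without MI library 2. Cardiomyocyte markers summed to 9035 to 20681 CPM after sham and 3810 to 8488 after MI; their part was not tested. The difference between ages was called for 2 members (2.00%, beside 3.39% of all genes more positive and 2.02% more negative), and for 0 when scaled to 7SK (beside 0.739% and 1.34%). Gm24299 differed by 0.83 ± 0.20 (adjusted p = 0.022; 0.76 and 0.055 without P1 sham library 3) and Snord100 by 0.74 ± 0.20 (adjusted p = 0.038). Snord100 lost its call without any one of 10 libraries (P1 sham 1, 3 and 4, P56 sham 2 and 3, P1 MI 1, 2 and 3, and P56 MI 1 and 4; 0.65 to 0.78, adjusted p = 0.057 to 0.083). The count fell to 0 without P1 sham library 3, rose to 4 without P56 MI library 2 and was 1 without any one of the other 9. In cardiomyocytes the difference was called for 0 members (beside 1.75% of all genes), also by edgeR. An unadjusted limma p under 0.05 was reached by 2 of 79. No share of all genes at that unadjusted level is given, so this count is no result about the members.

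**Figure D5:**
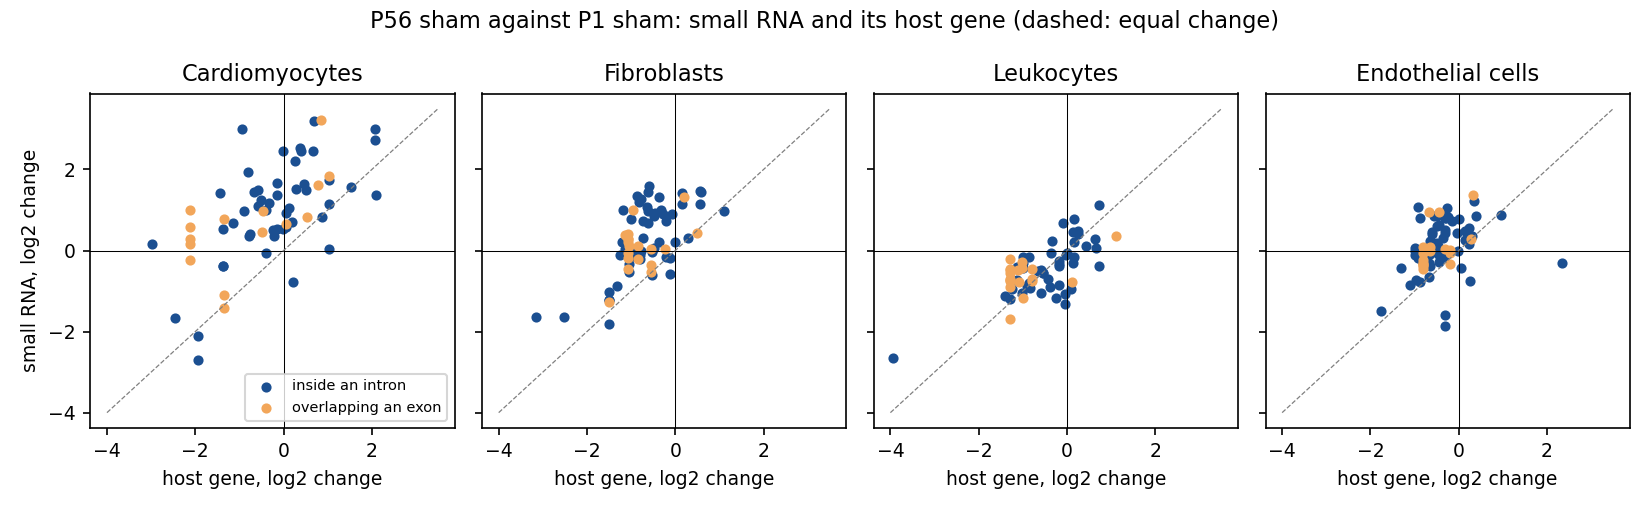
Change of a member (log2, vertical axis) against the change of its host gene (log2, horizontal axis) between P1 and P56 sham libraries, 1 panel per population; blue points lie inside an intron, orange points overlap an exon, and the dashed line marks equal change. In leukocytes no called member has a host called in the opposite direction, whereas in fibroblasts 15 of 37 do.

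Since 168 members lie inside a same-strand gene, 131 of them within an intron and 37 overlapping an exon, members and hosts were set side by side. For the 37, reads from the host's exon can count for either gene, depending on how overlaps were counted, so their values are uncertain. With age in leukocytes, 39 members with a tested host were called, and the host was called in the same direction for 32, in the opposite direction for 0 and not at all for 7. The same counts were 20, 7 and 13 of 40 in cardiomyocytes, 17, 15 and 5 of 37 in fibroblasts and 13, 14 and 4 of 31 in endothelial cells. These counts stand beside the share of all genes called with age, 32.5% higher and 34.5% lower in leukocytes. Members that were not called often had a called host too: 17 of 29 in leukocytes, 15 of 24 in cardiomyocytes, 31 of 36 in fibroblasts and 39 of 46 in endothelial cells. Restricted to intronic members in fibroblasts they were 13, 14 and 5 of 32. After MI at P56 all members gave 24, 1 and 6 of 31 in leukocytes and 12, 1 and 3 of 16 in fibroblasts. Endothelial cells gave 7, 0 and 1 of 8. The host was called for 22 of 37, 36 of 57 and 26 of 69 members that were not. Intronic members alone gave 14, 1 and 6 of 21, 8, 1 and 3 of 12, and 1, 0 and 1 of 2. Of all genes, 30.7% were higher and 28.8% lower in leukocytes, 24.8% and 25.2% in fibroblasts, and 12.5% and 7.88% in endothelial cells. After MI at P1 in leukocytes the counts were 8, 1 and 11 of 20, beside 22.6% of all genes higher and 22.6% lower. There the host was called for 20 of 48 members that were not. Hosts Snhg1 and Snhg10 were not analysed here.

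Genes for the proteins that carry the members were counted in the same comparisons. Of 12 tested genes for box C/D core proteins and their assembly, 8 were lower at P56 and 0 higher in fibroblasts (beside 32.2% and 34.8% of all genes), 7 and 0 in leukocytes (beside 34.5% and 32.5%), 8 and 1 in endothelial cells (beside 29.3% and 33.6%) and 2 and 4 in cardiomyocytes (beside 37.0% and 33.3%). The lists' median changes were -0.44, -0.38, -0.49 and -0.03 in the same order. Nop58, a box C/D core protein, changed by -2.52 ± 0.17 in fibroblasts (adjusted p = 2.8e-09), -1.91 in cardiomyocytes and -1.72 in leukocytes. These falls lay well beyond the list medians, and in cardiomyocytes 4 genes of the list went the other way. The list for box H/ACA proteins held 7 tested genes and goes beyond the core proteins named above. Of these, 4 were lower and 0 higher in fibroblasts, and 2 lower and 1 higher in cardiomyocytes, where the box H/ACA members rose. Dkc1 (dyskerin) changed by -0.65 in cardiomyocytes. After MI at P56, 8 of 12 box C/D protein genes and 5 of 7 box H/ACA protein genes were higher and 0 lower in fibroblasts (beside 24.8% of all genes higher and 25.2% lower), where Nop58 rose by 1.19 ± 0.17 (adjusted p = 3.9e-05), Nhp2 by 1.60 and Dkc1 by 0.61. In leukocytes they were 8 of 12 and 4 of 7 (beside 30.7% higher and 28.8% lower) and in endothelial cells 3 of 12 and 3 of 7 (beside 12.5% and 7.88%), again with 0 lower. Of 19 genes of RNA polymerase I and ribosome assembly, 14 were higher and 1 lower in fibroblasts and 11 and 0 in leukocytes, beside the same shares of all genes.

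Finally, the populations were compared over the 32 sham libraries. Levels were averaged over P1 and P56 sham. A member counted as enriched where this log2 level exceeded that of each other population by 1 or more with an adjusted p under 0.05. The value given is the lowest of the 3 differences. These sham libraries also gave the age comparison, so a rise at P56 alone can raise the average. Enrichment at each age was not tested. Cardiomyocytes had 23 of 105 tested members (21.9%, beside 11.7% of 17618 genes), 18 of them box H/ACA. Fibroblasts had 4 (3.81%, beside 7.07%), leukocytes 1 (0.952%, beside 5.54%) and endothelial cells 0 by limma (beside 5.01%) and 1 by edgeR. In cardiomyocytes Gm25788 led at 2.42 ± 0.28 (adjusted p = 3.2e-09), followed by Gm22486 at 2.31 ± 0.31, Gm22154 at 2.01 ± 0.33 and Snord13 at 1.81 ± 0.21. Snord13 averaged 4.22 and 12.9 CPM in P1 and P56 cardiomyocytes and 0.724 to 1.87 CPM in the other sham groups. With scaling to 7SK 1 of the 23 remained, Gm25788 at 1.03.

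The fibroblast members were Snord123 (1.70 ± 0.11, adjusted p = 2.1e-14), from the noncoding gene Snhg18, and Gm24564 (1.54 ± 0.11), Gm23600 (1.50) and DQ267102 (1.39), from Rian. Snord123 had 2.18, 2.21, 2.64 and 1.91 CPM in P1 sham fibroblasts and 1.55, 1.17, 1.44 and 1.07 at P56, against group means of 0.0878 to 0.254 CPM elsewhere. Members this low elsewhere pass the filter of 1 CPM in 4 libraries only through the enriched population. Their p-values are therefore no separate support. Gm24564 averaged 0.299 CPM in P1 sham leukocytes, 0.132 in P1 sham endothelial cells and was listed at 0 in every P56 sham cardiomyocyte library, so its fitted difference depends on the pseudocount. The hosts were enriched as well, Snhg18 by 2.08 and Rian by 3.76, and Rian averaged 37.0 to 88.8 CPM in the other P1 sham groups against 591 in fibroblasts. Without any one of the 4 P1 sham fibroblast libraries 2 members were enriched. Leaving out a library can also take such a member below the filter. The leukocyte member was Gm23722 (1.23 ± 0.14, adjusted p = 4.5e-09), beside 2.21 for its host Rnf149. Gm23722 lost the call without P1 sham leukocyte library 1, 2 or 4 or P56 sham leukocyte library 4. Leaving out any of these can take it below the same filter, which it may pass only through leukocyte libraries. Its p-value is therefore no separate support either.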

How the data were processed

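Total RNA depleted of ribosomal RNA (Ribo-Zero Gold) was made into stranded TruSeq libraries and sequenced with single-end reads of 50 bases, per the labels' protocols. Trimming with Trimmomatic, alignment with STAR, counting with HTSeq and the use of edgeR are named, with no version, in the submitters' processing notes, which also list GRCm38 among the builds. No source used here says how the counting treated strand and overlapping genes. The authors deposited a normalised signal per gene and library, which they named CPM; the column sums of the deposited signal differ (776590 to 2627530), so the values were taken as reads over scaled library sizes. Within each library 100.0% of values were whole multiples of 1 read within 0.01, the value of 1 read being 0.0340 to 0.136 CPM, and whole reads were recovered from them. Precision for a single library is that of these reads.

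Groups came from the labels, and no 2 of the 96 pairs of replicate libraries were identical. The main test was limma 3.58.1 (R 4.3.3) with a mean-variance trend on log2(deposited value + 0.5), over the 16 libraries of a population, or the 32 sham libraries for enrichment, with Benjamini-Hochberg adjustment over all genes tested. Adjusted p-values in the text are from limma unless edgeR is named. The alternatives were scaling to each library's 7SK, median-of-ratios scaling, pseudocounts of 0.1 and 1, a filter at 5 CPM or none, the quasi-likelihood test of edgeR 4.0.16 on recovered reads, a fit without the 7 libraries above 5% 18S, the replicate number as a block and leaving out each library. Leaving out both P56 cardiomyocyte libraries numbered 3 was chosen after seeing the data. For the age comparison edgeR on recovered reads called 10779 genes in the cardiomyocytes, 10536 in the fibroblasts, 10867 in the leukocytes and 9916 in the endothelial cells. Scripts were tested on simulated data.

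The members and the gene lists were chosen with earlier results of these data known. Members were named by size of change (the 4 largest each way among called members without overlap that reached 5 CPM in a group mean, predicted symbols only among the 2 largest), by level per kb, by enrichment, or as one of the families Snord118, Snord13, Snord14, Snord22, Snord17, Snord35a, Snhg1-hosted and Scarna. Gm22362, Gm22422, Gm23077, Gm23600, Gm24299, Gm24727, Gm25989, DQ267102, Snora30, Snord83b and Snord100, and some comparisons of the other members, fall outside that rule and were chosen after their values were seen. All 220 members lie at the same place in GENCODE M21 (GRCm38), which gave their sequences and host genes.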

Additional observations from a re-analysis of the deposited data

Results flagged for a closer look

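Within a group of 4 libraries, 1 library stood apart from the other 3 (by Dixon's test of the gap to the nearest of the others) in 13 of the 240 groups of values examined; about 1 in 20 would be expected from chance alone. In P1 sham fibroblasts this was library 4, which also had the highest share of 18S, with the lowest sum of Cajal body RNAs (427 CPM), the lowest Scarna9 (5.18 CPM) and the highest Gm25395 (70.0 CPM). In P1 MI fibroblasts library 4 had the lowest sum of all members (991 CPM), and in P56 MI fibroblasts library 1 the highest Gm25791 (9.07 CPM). In P56 sham endothelial cells library 3 had the highest sums of box C/D (627 CPM) and box H/ACA members (668 CPM). Scarna9 stood apart in P1 MI endothelial library 1 (28.5 CPM) and Snord22 in P56 MI endothelial library 2 (15.8 CPM). In cardiomyocytes the members per 1000 CPM of 7SK were highest in P56 sham library 4 (117), and Gm22154 was highest in P56 sham library 3 (671 CPM) and in P1 MI library 3 (30.5 CPM). Gm25395 was lowest in P1 sham leukocyte library 2 (110 CPM).

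The change after MI differed between P1 and P56 by limma's test of the difference for 15 of the named members and populations. Several of these members were named by their rank in this same test, so the count is no separate support. In fibroblasts the log2 differences were 0.89 for Snora57, -1.56 for Gm25395, -1.29 for Gm22442, -1.19 for Scarna6, -1.13 for Scarna13, -1.0 for Scarna2, -0.96 for Scarna17 and -0.90 for Gm22009. In leukocytes they were 2.16 for Gm25791, 1.97 for Snord22, -1.12 for Gm25395, -0.92 for Snord17 and -0.67 for Scarna6. In endothelial cells they were 0.83 for Gm24299 and 0.74 for Snord100.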

How the results depend on the processing

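Counts below are members called, to be set against the main counts only. The share of all genes called is not given for each setting, so these counts are no result about the members. With no filter they were, with age, 79 in cardiomyocytes, 71 in endothelial cells, 104 in fibroblasts and 95 in leukocytes; after P1 MI 1 in cardiomyocytes, 1 in fibroblasts and 47 in leukocytes; after P56 MI 42 in fibroblasts, with 31 differing between ages; and 1 enriched in endothelial cells. With a filter at 5 CPM they were 18 with age in leukocytes, 18 in fibroblasts and 15 in endothelial cells; 15 after P1 MI in leukocytes; after P56 MI 0 in cardiomyocytes, 0 in endothelial cells, 11 in fibroblasts and 15 in leukocytes; differing between ages 19 in leukocytes, 8 in fibroblasts and 0 in endothelial cells; and enriched 0 in fibroblasts and 0 in leukocytes. The filters test fewer or more members by construction.

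Scaled to 7SK they were 22 with age in cardiomyocytes and 30 in leukocytes; 12 after P1 MI in leukocytes; after P56 MI 0 in cardiomyocytes, 55 in fibroblasts and 4 in endothelial cells; differing between ages 35 in fibroblasts and 0 in endothelial cells; and enriched 1 in cardiomyocytes and 3 in leukocytes. That scaling moves all genes alike within a library, and after P56 MI in fibroblasts it left Scarna13 (0.09), Gm22009 (0.11) and Scarna6 (0.16) near 0 and not called (adjusted p = 0.43 to 0.67). Of 95 results it kept 65 on their side of the threshold, ended 27 calls and reversed the sign of 3. The cause was not tested. For P56 MI in cardiomyocytes edgeR called 1, a pseudocount of 0.1 called 1 and leaving out the libraries of over 5% 18S called 0. In endothelial cells edgeR and the pseudocount of 0.1 each gave 1 enriched member. In leukocytes a pseudocount of 1 and leaving out the 18S libraries gave 0, and in fibroblasts the latter gave 2. Without both P56 cardiomyocyte libraries numbered 3, 2 members differed between ages in cardiomyocytes. Median-of-ratios scaling ended 0 of 95 calls.

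Leaving out single libraries gave, with age, 39 to 53 cardiomyocyte, 35 to 49 fibroblast, 42 to 51 leukocyte and 31 to 38 endothelial members. After P1 MI it gave 19 to 35 in leukocytes, and after P56 MI 0 to 6, 18 to 30, 27 to 41 and 3 to 14 in the same order of populations. Differing between ages were 36 to 46 in leukocytes, 17 to 26 in fibroblasts and 0 to 4 in endothelial cells, and enriched were 16 to 29 in cardiomyocytes, 2 to 4 in fibroblasts and 0 to 1 in leukocytes. Within a population the replicate numbers did not pair the groups (correlations of same-numbered libraries from -0.422 to 0.373). Whether same-numbered libraries of different populations share a heart or pool was not examined. The enrichment fit treated them as independent. With the number as a replicate block 48, 48, 48 and 40 members were called with age, 33 after P1 MI in leukocytes, and after P56 MI 2, 25, 39 and 10; 18, 43 and 2 differed between ages in fibroblasts, leukocytes and endothelial cells. Of 86 results the block ended 1 call. Members of few reads are limited by depth, and 146 of 220 averaged under 1 CPM.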
